A study of Mus musculus with 9 samples.

Results

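Translation initiation factors are the proteins that bring a messenger RNA, the initiator transfer RNA and the ribosomal subunits together at the start codon. Their transcripts were measured by 1-colour microarray in Dgcr8 -/- mouse embryonic stem (ES) cells, which lack a protein needed to cut most microRNA precursors. One group received a miRIDIAN let-7c mimic and another a miRIDIAN miR-294 mimic, each at 50 nM with Dharmafect 1, the third was mock transfected, and all were then kept without leukaemia inhibitory factor (LIF) until harvest at 12 h. Each of the 3 groups had 3 biological replicates, which gave 9 arrays. Every group carried the Dgcr8 deletion and was without LIF, and a control mimic is not among the groups. What any transfected RNA does to these cells is therefore contained in each comparison with mock. The labels call the replicates biological without saying what separated them, so p-values measure the spread between these samples. The labels do not say whether the cells were 1 clone.

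The members were all probe sets annotated with exactly 1 gene symbol that starts with Eif and a digit from 1 to 6, without the Eif2ak kinases and pseudogenes. This rule used no measured value. It found 54 probe sets of 35557 on the array, for 45 genes of 19938 with a symbol of their own. The rule left out 10 probe sets with several symbols, through which Eif3j1, Eif3j2 and Eif4ebp3 were not analysed here. No probe set with its own symbol was found for Eif1, Eif2s1, Eif3g and Eif4g1. The probe set with the highest mean stood for each gene. Testing required that 3 or more arrays exceed the 40th percentile of their own probe sets, a level between 6.84 and 6.90 on the log2 scale. This kept 43 of the 45 genes and 13182 genes in all.

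In the usual scheme of initiation, eIF1, eIF1A, eIF3 and eIF5 gather on the small ribosomal subunit, and eIF2, loaded with GTP, delivers the initiator transfer RNA. The cap-binding protein eIF4E, the scaffold eIF4G and the helicase eIF4A together form eIF4F, which recruits the messenger RNA, and eIF5B joins the large subunit. eIF2B recharges eIF2 with GTP, and the 4E-BPs hold eIF4E away from eIF4G when the mTORC1 kinase is inactive. ES cells are known for a low rate of protein synthesis that rises on differentiation. The let-7 family is abundant in differentiated cells, and normal ES cells are rich in miR-294 and its relatives.

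The seed, bases 2 to 8 of a microRNA, largely sets which transcripts it pairs with, and the mimics are shown for that reason, with the seed in capitals. The sequences are those of RefSeq (GRCm38.p6) for let-7c-5p, encoded at chr15:85706616-85706637 and chr16:77599672-77599693, and for miR-294-3p at chr7:3220691-3220712, all on the plus strand. The labels do not name the arm, and these are the arms that the plain names commonly denote. The seeds differ.
let-7c-5p: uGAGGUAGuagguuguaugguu
miR-294-3p: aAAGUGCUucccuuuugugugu

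The arrays were close to each other in overall level, with medians between 7.36 and 7.41, and each correlated with the others of its group at a mean of 0.9952 or more across genes, which are not independent replicates. All 7 of 7 ES cell markers were above the filter level, and their mean level ran from 12.32 to 12.37 in mock, from 12.15 to 12.18 with let-7c and from 12.39 to 12.47 with miR-294. This moved in the same order as many initiation factors, and its part in the results was not tested. Markers of feeder fibroblasts (mean level 6.64 to 6.99 over all arrays) and primitive endoderm (6.82 to 7.10) lay near the filter level, and those of trophoblast (7.28 to 7.41) and neurectoderm (7.47 to 7.85) lay above it. In the same order, 4 of 6, 3 of 5, 3 of 5 and 4 of 5 markers passed the filter. The markers that did not pass were Lum and Postn, Sox17 and Dab2, Cdx2 and Elf5, and Olig3. The neurectoderm list was highest with let-7c (7.76 to 7.85, against 7.47 to 7.67 with mock), and its part in the results was not tested. In these bulk samples, fewer cells with a transcript and less of it per cell cannot be told apart.

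With let-7c, initiation factor transcripts were lower than with mock or did not pass the test. Of the 43 tested genes 18 fell and 0 rose in the limma fit (adjusted p under 0.05), against a background of 28.7% of all tested genes called, 14.8% lower and 13.9% higher. At an unadjusted p under 0.05, 21 were lower and 1 was higher, against 2588 lower and 2714 higher of all 13182 tested genes. The falls were small: the largest were those of Eif4e2, Eif4ebp2 and Eif4g2, each by 0.38 on the log2 scale, and none of the 18 reached 0.5. The median difference was -0.10, against 0.02 for all tested genes. In 23 of the 43 genes all let-7c arrays lay below all mock arrays, which held for 21.9% of all tested genes.

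With miR-294, the direction was the opposite. Of the 43 genes 20 rose and 0 fell, against a background of 41.9% of all tested genes called, 20.7% higher and 21.1% lower. At an unadjusted p under 0.05, 23 were higher and 0 lower, against 3381 higher and 3166 lower of all 13182 tested genes. The largest rises were those of Eif1ad (0.69), Eif1ax (0.52) and Eif6 (0.51), the only ones past 0.5. The median difference was 0.12, against 0.02 for all tested genes. In 28 of the 43 genes all miR-294 arrays lay above all mock arrays, which held for 28.3% of all tested genes.

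Compared directly, 32 of the 43 genes were lower after let-7c than after miR-294 and 1, Eif5a2, was higher. The background was 50.8% of all tested genes called, 24.5% lower and 26.2% higher. The median difference was -0.23, against -0.01 for all tested genes, and only Eif1ad differed by 2-fold. The 2 comparisons with mock share the mock arrays, so they are not separate evidence. Of the 43 genes 10 fell with let-7c and also rose with miR-294: Eif1ad, Eif2b1, Eif2b3, Eif2b4, Eif3b, Eif3d, Eif4e2, Eif4ebp1, Eif4ebp2 and Eif5a. This pattern held for 23.3% of the members and 4.46% of all tested genes. Another 8 fell with let-7c and were not called with miR-294 (18.6%, against 6.76% of all tested genes). A further 10 rose with miR-294 and were not called with let-7c (23.3%, against 13.1%). The other 15 were called with neither (34.9%, against 44.7%). The members' replicates lay close together, with a median SD of 0.040 with mock, 0.049 after let-7c and 0.035 after miR-294, against 0.057, 0.068 and 0.064 over all tested genes. The part of this smaller spread in the number of calls was not tested.

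**Figure D1:**
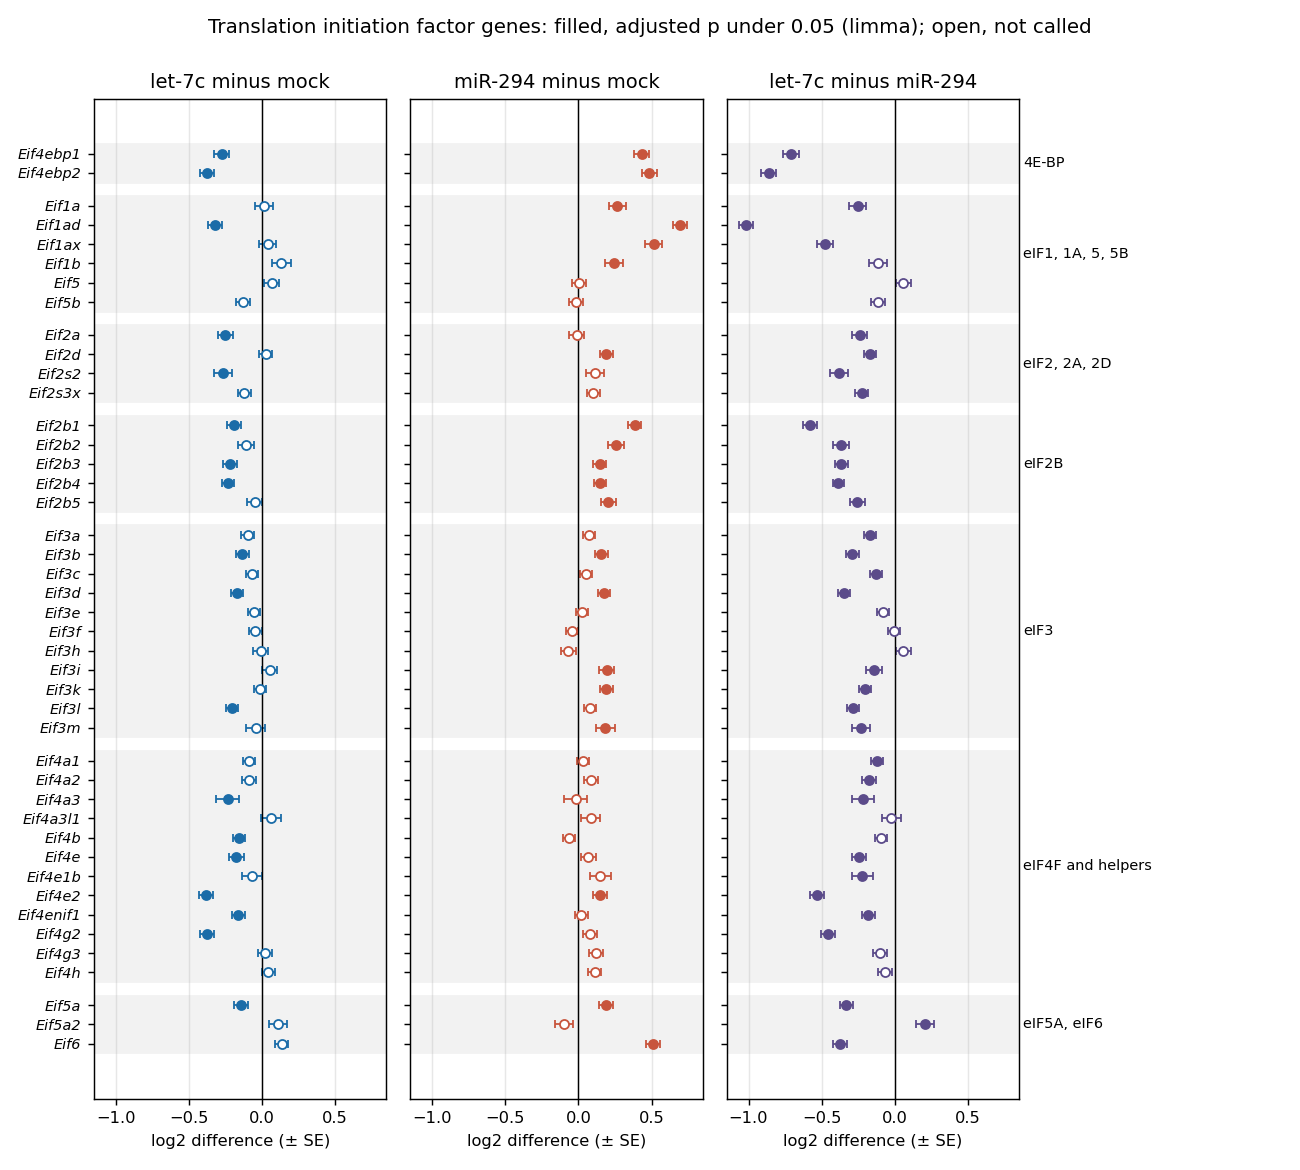
Log2 difference (x axis, bars are the standard error) of the 43 tested initiation factor genes (rows, by complex or symbol) in the 3 comparisons. Filled points mark an adjusted p under 0.05. All 18 filled points lie left of 0 for let-7c minus mock, all 20 lie right of 0 for miR-294 minus mock, and 32 of 33 lie left of 0 for let-7c minus miR-294.

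**Figure D2:**
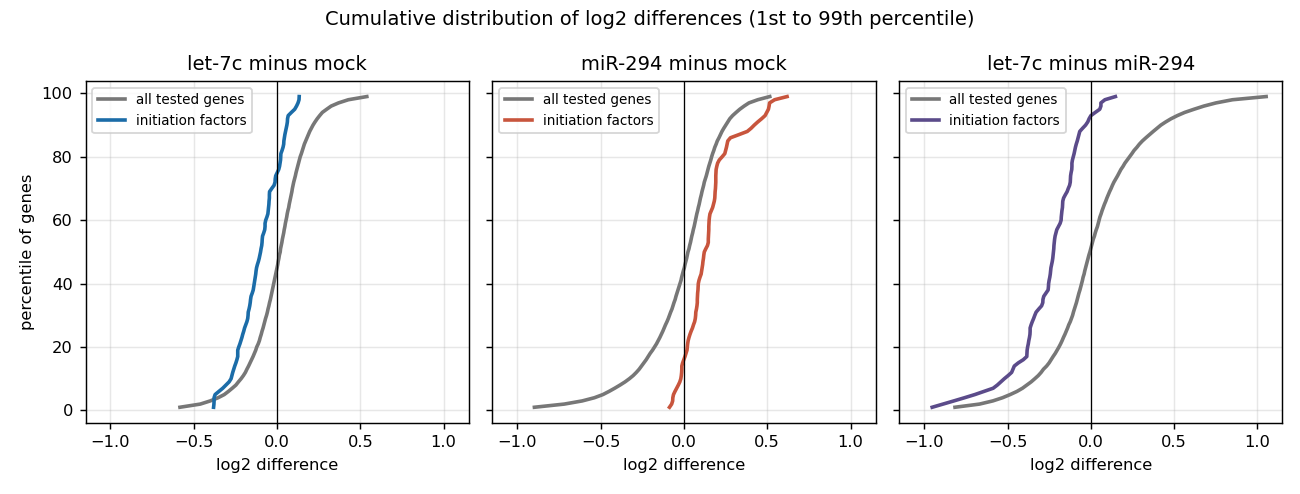
Cumulative distribution of log2 differences (x axis) for the 43 initiation factor genes in colour and for all 13182 tested genes in grey, in each of the 3 comparisons, with the percentile of genes on the y axis. The coloured median lies at -0.10 for let-7c minus mock, 0.12 for miR-294 minus mock and -0.23 for let-7c minus miR-294, while the grey medians lie between -0.01 and 0.02.

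The genes of eIF1, eIF1A, eIF5 and eIF5B and their relatives by name differed among themselves. Eif1ad encodes a protein with an eIF1A-like domain and differed most of all members with miR-294 and between the mimics. It is a member by its symbol, and the domain alone does not show that its protein acts in initiation. Its probe set read as follows. Eif1ad read 9.37, 9.46 and 9.52 with let-7c, 9.80, 9.79 and 9.75 with mock and 10.42, 10.49 and 10.50 with miR-294 (log2 intensity, replicates 1 to 3). The 3 groups did not overlap, with let-7c lowest and miR-294 highest. Eif1ad fell by 0.32 with let-7c (SE 0.05, adjusted p = 0.000718) and rose by 0.69 ± 0.05 with miR-294 (1.62-fold, adjusted p = 1.52e-06), and the mimics differed by 2.02-fold (-1.02 ± 0.05, adjusted p = 5.5e-08).

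Eif1ax, the X-linked gene for eIF1A, which helps the small subunit to scan, read 10.09, 10.25 and 10.19 with let-7c, 10.08, 10.18 and 10.15 with mock and 10.57, 10.70 and 10.70 with miR-294. Only the miR-294 arrays stood apart. It rose by 0.52 ± 0.06 with miR-294 (adjusted p = 3.52e-05), and its difference with let-7c was 0.04 ± 0.06 (adjusted p = 0.65). The other gene for eIF1A, Eif1a, rose with miR-294 (0.26 ± 0.06, adjusted p = 0.00398), as did Eif1b, a relative of eIF1 (0.24 ± 0.06, adjusted p = 0.00904). With let-7c these genes differed from mock by 0.01 (Eif1a) and 0.13 (Eif1b) and were not called. Other probe sets that carry Eif1a together with further gene symbols were not used. Eif5, for the protein that triggers GTP hydrolysis by eIF2, and Eif5b, for the subunit-joining GTPase, were called in none of the 3 comparisons. Eif5 lay within 0.06 of mock with either mimic and Eif5b differed by -0.13 with let-7c (adjusted p = 0.0656) and -0.01 with miR-294.

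For eIF2, which carries the initiator transfer RNA, the 2 measured core subunits were lower after let-7c than after miR-294. Eif2s2, for the beta subunit, read 12.09, 12.29 and 12.26 with let-7c, 12.41, 12.55 and 12.48 with mock and 12.56, 12.65 and 12.58 with miR-294. All let-7c arrays lay below the others. Eif2s2 fell by 0.27 with let-7c (SE 0.06, adjusted p = 0.00752), and its difference with miR-294 was 0.12 ± 0.06 (adjusted p = 0.148). Eif2s3x, the X-linked gene for the gamma subunit, missed the threshold with let-7c (-0.12 ± 0.04, adjusted p = 0.0576) or miR-294 (0.10 ± 0.04, adjusted p = 0.0838), but the mimics differed (-0.23 ± 0.04, adjusted p = 0.0012). The let-7c difference was called with a replicate block (adjusted p = 0.0468) and without let-7c replicate 2 (0.0391), in a range of 0.0103 to 0.156 across all alternative settings, as for each such range here. Its Y-linked copy Eif2s3y lay between 6.39 and 6.76 on the 9 arrays, above the filter level on none, and was not tested.

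Of the eIF2 relatives, Eif2a fell with let-7c (-0.25 ± 0.05, adjusted p = 0.00453) and lay at mock level with miR-294 (-0.01). This gene encodes a separate protein that can bind initiator transfer RNA, and not the alpha subunit of eIF2. Eif2d, which encodes a factor of transfer RNA delivery and ribosome recycling, showed the other pattern, with a rise with miR-294 (0.19 ± 0.04, adjusted p = 0.00355) and a difference of 0.02 with let-7c.

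The 5 subunit genes of eIF2B, the exchange factor that reloads eIF2 with GTP, moved together. All 5 rose with miR-294 (median 0.21), 3 of 5 fell with let-7c (median -0.19), and all 5 were lower after let-7c than after miR-294 (median -0.37). Of all tested genes 20.7% rose with miR-294, 14.8% fell with let-7c and 24.5% were lower after let-7c than after miR-294. Eif2b1, for the alpha subunit, read 9.87, 9.89 and 9.96 with let-7c, 10.04, 10.14 and 10.12 with mock and 10.46, 10.50 and 10.49 with miR-294. The groups did not overlap. Its rise with miR-294 was 0.39 ± 0.05 (1.31-fold, adjusted p = 5.91e-05) and its fall with let-7c was -0.19 ± 0.05 (adjusted p = 0.00894).

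Eif2b4, for the delta subunit, read 8.35, 8.38 and 8.39 with let-7c, 8.63, 8.60 and 8.60 with mock and 8.74, 8.77 and 8.76 with miR-294, again without overlap. It fell with let-7c (-0.24 ± 0.04, adjusted p = 0.00129) and rose with miR-294 (0.15 ± 0.04, adjusted p = 0.0111). Eif2b3, for the gamma subunit, fell with let-7c (-0.22 ± 0.05, adjusted p = 0.00435) and rose with miR-294 (0.15 ± 0.05, adjusted p = 0.0241). The latter call ended without miR-294 replicate 1 (adjusted p = 0.0692) and without mock replicate 1 (0.0507), 2 (0.0752) or 3 (0.0561), in a range of 0.00839 to 0.0752. Eif2b2 (0.26 ± 0.06) and Eif2b5 (0.21 ± 0.05), the latter for the catalytic epsilon subunit, rose with miR-294. With let-7c these 2 differed from mock by -0.11 and -0.05 and did not pass.

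eIF3, the largest initiation factor, was measured through 11 subunit genes, and only some of them passed against mock. Of the 11 differences 10 were negative with let-7c, 9 were positive with miR-294 and 10 were negative between the mimics. Of all 13182 tested genes, 5945 were negative with let-7c, 7299 positive with miR-294 and 6752 negative between the mimics. Some of the 11 were smaller than their SE, such as Eif3h (-0.01 ± 0.05) and Eif3k (-0.01 ± 0.04) with let-7c. Between the mimics 8 of 11 were lower after let-7c (72.7%, against 24.5% of all tested genes). With let-7c 3 of 11 fell (27.3%, against 14.8% of all tested genes) and 8 did not pass (median -0.06). With miR-294 5 of 11 rose (45.5%, against 20.7%) and 6 did not pass (median 0.08). Eif3d, whose protein can bind the cap of some messenger RNAs, read 11.49, 11.52 and 11.54 with let-7c, 11.69, 11.70 and 11.68 with mock and 11.87, 11.88 and 11.85 with miR-294. The 3 groups were evenly spaced and did not overlap, with a difference of -0.17 ± 0.04 with let-7c (adjusted p = 0.00767) and 0.17 ± 0.04 with miR-294 (adjusted p = 0.00453).

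Eif3l fell with let-7c (-0.21 ± 0.04, adjusted p = 0.00339) and differed by 0.08 with miR-294. Eif3b fell with let-7c (-0.14 ± 0.05, adjusted p = 0.0453) and rose with miR-294 (0.16 ± 0.05, adjusted p = 0.0175). Its fall ended without any 1 of the 6 arrays compared: without let-7c replicate 1 (adjusted p = 0.127), 2 (0.0768) or 3 (0.0533), and without mock replicate 1 (0.0542), 2 (0.158) or 3 (0.0955), in a range of 0.00512 to 0.158. Its rise ended without miR-294 replicate 2 (adjusted p = 0.0524) or 3 (0.0556) and without mock replicate 1 (0.0699), in a range of 0.00114 to 0.0699. Eif3i (0.19 ± 0.05), Eif3k (0.19 ± 0.04) and Eif3m (0.18 ± 0.06, adjusted p = 0.0345) rose with miR-294 and lay within 0.05 of mock with let-7c. The call of Eif3m ended without miR-294 replicate 1 (adjusted p = 0.121) or 2 (0.0549), without mock replicate 1 (0.112) or 3 (0.0725) and with the mean of its probe sets (0.0508), in a range of 0.00996 to 0.121.

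The remaining eIF3 subunits lay close to mock. Eif3a, for the scaffold subunit, and Eif3c were not called in either comparison with mock (-0.10 and -0.07 with let-7c, 0.07 and 0.05 with miR-294), but both were lower after let-7c than after miR-294 (-0.17 and -0.13). Eif3e, Eif3f and Eif3h were called in none of the 3 comparisons, and their differences from mock ran from -0.06 to -0.01 with let-7c and from -0.07 to 0.02 with miR-294. A miss of the threshold does not show that these levels were equal.

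The genes grouped here as eIF4F and its helpers are those with an Eif4 symbol, without the 4E-BPs. Not all of their proteins are part of eIF4F. In this group 6 of 12 tested genes fell with let-7c (50%, against 14.8% of all tested genes). Of the eIF4F subunit genes Eif4e, Eif4a1, Eif4a2 and Eif4g3, only Eif4e was among them. With miR-294 1 of 12 rose (8.33%), a smaller share than the 20.7% of all tested genes. The single rise was that of Eif4e2, which encodes 4EHP, a cap-binding relative of eIF4E that represses translation. Eif4e2 read 10.10, 10.06 and 10.09 with let-7c, 10.42, 10.55 and 10.44 with mock and 10.64, 10.66 and 10.55 with miR-294. The let-7c arrays lay well below the rest, and the miR-294 arrays lay only just above mock. The fall with let-7c was -0.38 ± 0.05 (1.30-fold, adjusted p = 0.000272). The rise with miR-294 was 0.15 ± 0.05 (adjusted p = 0.035), and it ended without miR-294 replicate 1 (adjusted p = 0.0855) or 2 (0.113) and without mock replicate 1 (0.12) or 3 (0.105), in a range of 0.0133 to 0.12.

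Eif4g2, which encodes DAP5, a relative of eIF4G that does not bind eIF4E, read 12.32, 12.41 and 12.39 with let-7c, 12.72, 12.77 and 12.77 with mock and 12.77, 12.85 and 12.88 with miR-294. Only the let-7c arrays stood apart. It fell by 0.38 with let-7c (SE 0.05, adjusted p = 0.000201) and differed by 0.08 ± 0.05 with miR-294 (adjusted p = 0.194). Eif4g3, for another eIF4G, was not called with let-7c (0.02) or miR-294 (0.12 ± 0.05, adjusted p = 0.062). The miR-294 difference was called with a replicate block (adjusted p = 0.0347) and without miR-294 replicate 1 (0.0343), in a range of 0.0238 to 0.178.

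Eif4e, for the cap-binding subunit of eIF4F, has 3 probe sets. The brightest read 11.29, 11.46 and 11.43 with let-7c, 11.54, 11.60 and 11.57 with mock and 11.60, 11.67 and 11.64 with miR-294. The let-7c arrays lay lowest. The highest mock array and the lowest miR-294 array both round to 11.60, but before rounding all miR-294 arrays lay above mock. Eif4e fell with let-7c (-0.18 ± 0.05, adjusted p = 0.0242) and differed by 0.07 with miR-294 (adjusted p = 0.307). This fall rests on the brightest probe set: with the mean of the 3 it was not called (adjusted p = 0.643). It also ended without let-7c replicate 1 (adjusted p = 0.0742), mock replicate 2 (0.0819) or mock replicate 3 (0.0628), in a range of 0.00362 to 0.643. In a fit of every probe set, the second Eif4e probe set differed by 0.11 ± 0.13 with let-7c and 0.46 ± 0.13 with miR-294 (adjusted p = 0.026), and the third by -0.05 and -0.10.

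The helicase genes Eif4a1 and Eif4a2 were not called in either comparison with mock (-0.09 each with let-7c, 0.03 and 0.09 with miR-294). Eif4a3, a helicase of the exon junction complex rather than of eIF4F, fell with let-7c (-0.24 ± 0.08, adjusted p = 0.0411), although its let-7c and mock arrays overlapped (9.76 to 10.04 and 9.98 to 10.22). That call ended without let-7c replicate 1 (adjusted p = 0.14) or 3 (0.116) and without mock replicate 2 (0.148) or 3 (0.109), in a range of 0.00879 to 0.148. Eif4b, a cofactor of the helicase, fell with let-7c (-0.16 ± 0.04, adjusted p = 0.0135; 0.0542 without mock replicate 1, in a range of 0.00087 to 0.0542). The other cofactor gene, Eif4h, was not called (0.04 with let-7c, 0.11 with miR-294), though it passed with miR-294 under a replicate block (adjusted p = 0.0378, in a range of 0.019 to 0.229).

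Eif4enif1, which encodes the eIF4E transporter 4E-T, fell with let-7c (-0.16 ± 0.04, adjusted p = 0.0187). The call ended without let-7c replicate 1 (adjusted p = 0.0594) and without mock replicate 1 (0.0619) or 3 (0.0623), in a range of 0.00941 to 0.0623. The dim members gave little information. Eif4e3 lay between 6.59 and 7.07, above the filter level on 1 array, and was not tested. Eif4a3l1 (6.82 to 7.06) and the oocyte gene Eif4e1b (7.51 to 7.85) were tested and not called against mock. With miR-294, Eif4a3l1 passed without miR-294 replicate 1 (adjusted p = 0.0366, in a range of 0.0366 to 0.692) and Eif4e1b without mock replicate 1 (0.0346, in a range of 0.0346 to 0.397).

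The 4E-BPs, which block initiation by holding eIF4E, moved in the same direction as the factors. Eif4ebp1 read 10.64, 10.61 and 10.63 with let-7c, 11.02, 10.81 and 10.88 with mock and 11.37, 11.33 and 11.32 with miR-294. The groups did not overlap, and mock was the most spread. It fell with let-7c (-0.28 ± 0.05, adjusted p = 0.00305) and rose with miR-294 (0.43 ± 0.05, 1.35-fold, adjusted p = 8.58e-05).

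Eif4ebp2 read 9.43, 9.42 and 9.41 with let-7c, 9.86, 9.79 and 9.74 with mock and 10.24, 10.36 and 10.25 with miR-294. The groups again did not overlap. Eif4ebp2 fell by 0.38 with let-7c (SE 0.05, adjusted p = 0.000301) and rose by 0.49 ± 0.05 with miR-294 (1.40-fold, adjusted p = 2.32e-05). The mimics differed by 1.82-fold (-0.86 ± 0.05, adjusted p = 1.73e-07). RNA levels say nothing of the phosphorylation that controls these proteins.

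Eif5a, for the factor that carries the amino acid hypusine and keeps ribosomes moving, read 12.69, 12.75 and 12.79 with let-7c, 12.84, 12.92 and 12.90 with mock and 13.02, 13.10 and 13.11 with miR-294. The groups did not overlap, with small gaps between them. It rose with miR-294 (0.19 ± 0.05, adjusted p = 0.00824) and fell with let-7c (-0.14 ± 0.05, adjusted p = 0.0424). The fall ended without let-7c replicate 1 (adjusted p = 0.121) or 2 (0.0777), without mock replicate 1 (0.0505), 2 (0.133) or 3 (0.109) and with the mean of its 2 probe sets (0.0859), in a range of 0.0037 to 0.133. Its relative Eif5a2 was the only member higher after let-7c than after miR-294 (0.21 ± 0.06, adjusted p = 0.013). Against mock Eif5a2 was not called, at 0.11 with let-7c and -0.10 with miR-294.

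Eif6 encodes a factor that binds the large ribosomal subunit and keeps the subunits apart. It read 11.20, 11.20 and 11.21 with let-7c, 11.03, 11.13 and 11.04 with mock and 11.51, 11.60 and 11.61 with miR-294. Mock was the lowest group here, unlike in most members. Eif6 rose by 0.51 ± 0.05 with miR-294 (1.42-fold, adjusted p = 9.65e-06). With let-7c it was higher by 0.13 ± 0.05 and narrowly missed the threshold (adjusted p = 0.0509). The call was made with a replicate block (adjusted p = 0.0374) and without mock replicate 2 (0.0458), in a range of 0.0126 to 0.151.

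**Figure D3:**
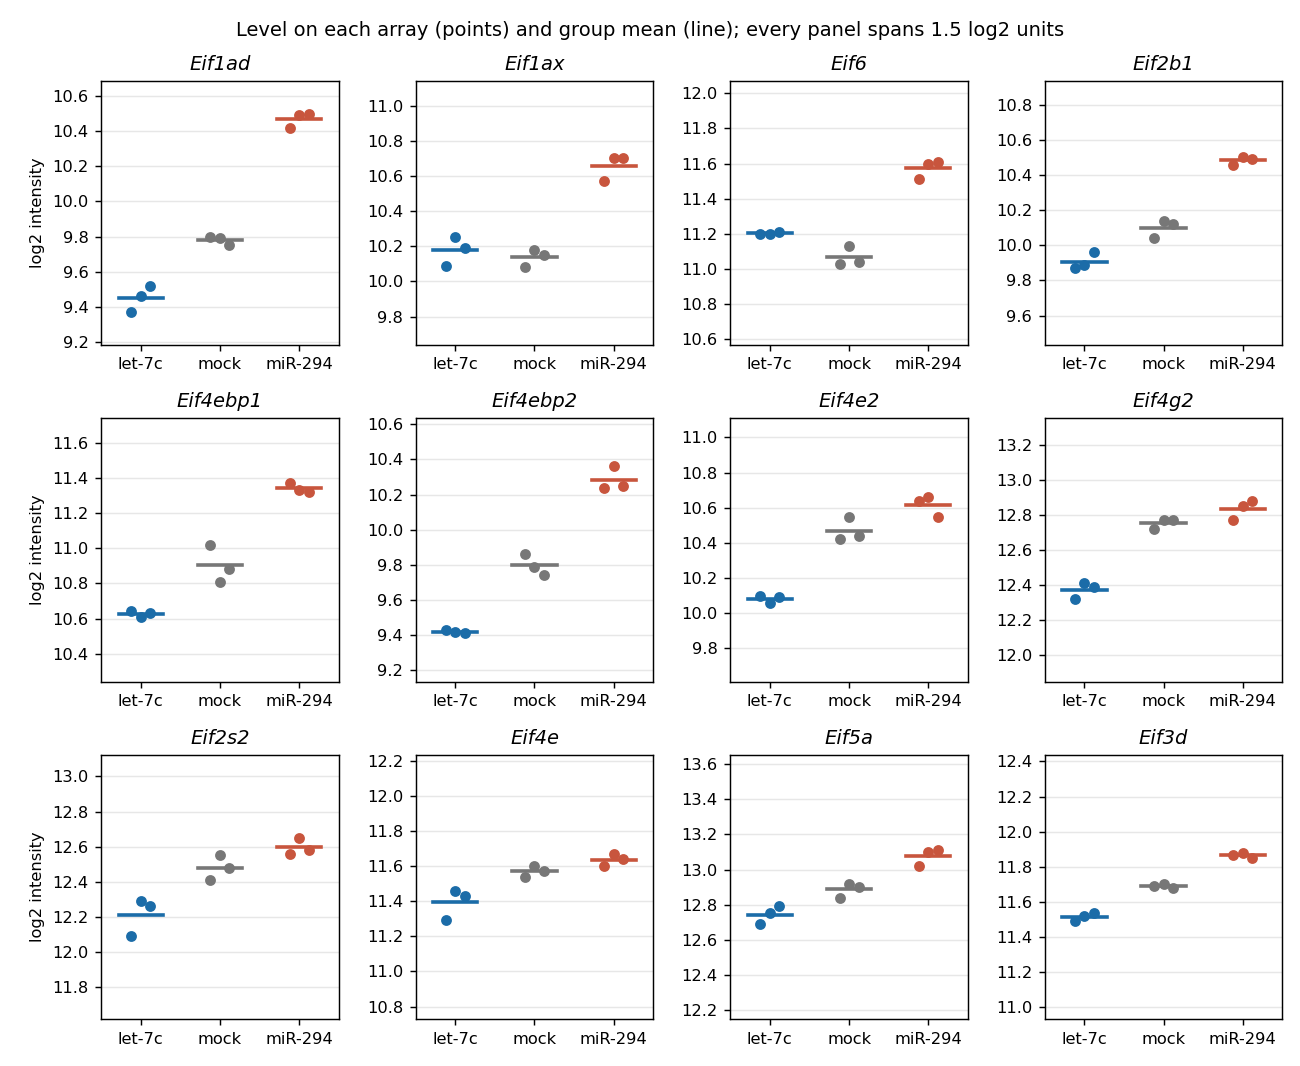
Log2 intensity (y axis) on each array (points) with the group mean (line) for 12 initiation factor genes, with let-7c, mock and miR-294 on the x axis. Eif1ad, Eif2b1, Eif4ebp1, Eif4ebp2, Eif3d and Eif5a step up from let-7c to mock to miR-294 without overlap. Eif2s2, Eif4e and Eif4e2 do so too, with mock and miR-294 almost touching. This order without overlap held for 16 of the 43 tested members (37.2%) and for 7.81% of all tested genes. Eif4g2 stands apart with let-7c, and Eif1ax with miR-294.

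In the direct comparison of the mimics, the 5 members that differed most after Eif1ad were Eif4ebp2, Eif4ebp1 (-0.71 ± 0.05, adjusted p = 1.1e-06), Eif2b1 (-0.58 ± 0.05, adjusted p = 1.41e-06), Eif4e2 (-0.53 ± 0.05, adjusted p = 5.39e-06) and Eif1ax (-0.48 ± 0.06, adjusted p = 3.15e-05), all lower with let-7c. The 10 genes that did not pass were Eif1b, Eif5, Eif5b, Eif3e, Eif3f, Eif3h, Eif4a3l1, Eif4b, Eif4g3 and Eif4h. Some calls depended on 1 array. The call of Eif3c (adjusted p = 0.0242) ended without let-7c replicate 1 (0.0534) or 3 (0.0629) and without miR-294 replicate 1 (0.0697) or 3 (0.0546), in a range of 0.00197 to 0.0859. The call of Eif3i (adjusted p = 0.0423) ended without let-7c replicate 2 (0.162) or 3 (0.0579) and without miR-294 replicate 1 (0.114) or 2 (0.107), in a range of 0.0158 to 0.162. Eif4a1 and Eif4a3 encode helicases, and their calls in this comparison were as fragile. That of Eif4a1 (adjusted p = 0.0258) ended without let-7c replicate 1 (0.0743), miR-294 replicate 2 (0.0591) or miR-294 replicate 3 (0.0659), in a range of 0.000477 to 0.0743. That of Eif4a3 (adjusted p = 0.0356) ended without let-7c replicate 1 (0.131) or 3 (0.104) and without miR-294 replicate 1 (0.0707), 2 (0.0888) or 3 (0.0612), in a range of 0.00515 to 0.131. That of Eif4e1b (adjusted p = 0.0199) ended without let-7c replicate 3 (0.0779), miR-294 replicate 2 (0.0503) or miR-294 replicate 3 (0.0599) and with the mean of its 2 probe sets (0.0578), in a range of 0.00802 to 0.0779. Its second probe set differed by -0.04 ± 0.07 (adjusted p = 0.686 in the fit of every probe set). Eif4g3 (adjusted p = 0.102) passed without miR-294 replicate 1 (0.0499), in a range of 0.0437 to 0.259.

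Of the 45 genes 7 had more than 1 probe set: Eif2s2, Eif3m, Eif4a1, Eif4e, Eif4e1b, Eif4enif1 and Eif5a. When all 54 probe sets were considered one by one, 52 were tested, of which 16 fell and 0 rose with let-7c, and 20 rose and 0 fell with miR-294. Of all 21971 probe sets tested in that fit, 10.7% fell and 8.32% rose with let-7c, and 15.5% rose and 15.1% fell with miR-294. For Eif2s2 the second probe set differed by -0.31 with let-7c, and for Eif5a the second differed by -0.09 with let-7c and 0.22 with miR-294. The 3 probe sets of Eif4a1 differed by -0.15 to -0.09 with let-7c and by 0.01 to 0.03 with miR-294. The table gives no probe positions, so signal from near-identical copies of these genes cannot be told apart.

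Since many members moved together, their promoters were searched for short motifs. RefSeq promoter windows (GRCm38.p6, 250 bases before to 50 after a start site) were matched for 35 of the 45 genes, and a gene counted if any of its windows held the motif on either strand. CACGTG, the E-box that Myc and Max bind, was found in 9 of 35 members (25.7%) and in 11.6% of 10433 tested genes with a window. It was found in 2 of 15 genes that fell with let-7c and 7 of 19 that were not called, and in 3 of 15 that rose with miR-294 and 6 of 19 that were not called. CCGGAAG, a core bound by ETS factors, was found in 14 of 35 members and in 18.6% of the tested genes. CCAAT was found in 37.1% of members and 42.2% of tested genes and TGACGTCA, the cyclic AMP response element, in 0.0% and 3.5%. Genes with several windows have more chances of a match, and a match is a description of the letters only. Of all 32851 windows 7.15% held CACGTG and 8.86% held CCGGAAG.

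3 windows are shown: those of Eif1ad and Eif4ebp2, which differed most between the mimics, and 1 of the 6 windows of Eif5a, which holds an E-box. They are chr19:5366563-5366862 on the plus strand, chr10:61452620-61452919 on the minus strand and chr11:69921226-69921525 on the minus strand, each as the RefSeq table gives it, with CACGTG and CCGGAAG (or its reverse complement CTTCCGG) in capitals. The E-box of the Eif5a window starts at position -185 from the start site. The other 2 windows hold CTTCCGG and no E-box.
Eif1ad: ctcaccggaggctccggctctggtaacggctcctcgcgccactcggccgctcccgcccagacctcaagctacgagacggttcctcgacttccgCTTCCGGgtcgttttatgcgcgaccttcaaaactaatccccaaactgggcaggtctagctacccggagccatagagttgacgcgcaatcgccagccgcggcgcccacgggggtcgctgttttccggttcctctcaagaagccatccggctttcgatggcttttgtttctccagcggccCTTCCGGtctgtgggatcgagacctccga
Eif4ebp2: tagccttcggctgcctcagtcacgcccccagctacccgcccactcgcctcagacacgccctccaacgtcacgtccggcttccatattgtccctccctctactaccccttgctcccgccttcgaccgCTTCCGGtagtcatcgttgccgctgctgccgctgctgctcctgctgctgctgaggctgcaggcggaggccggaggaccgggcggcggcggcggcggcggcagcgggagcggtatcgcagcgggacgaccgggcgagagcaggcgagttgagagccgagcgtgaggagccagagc
Eif5a: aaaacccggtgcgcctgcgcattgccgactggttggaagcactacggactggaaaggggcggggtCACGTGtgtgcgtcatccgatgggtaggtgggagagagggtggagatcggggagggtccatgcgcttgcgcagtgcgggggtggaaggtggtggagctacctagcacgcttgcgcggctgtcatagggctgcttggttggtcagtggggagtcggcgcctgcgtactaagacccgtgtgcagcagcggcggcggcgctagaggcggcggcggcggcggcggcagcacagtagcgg

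Genes that act with the initiation factors were read from 6 lists of partners. Their counts stand against 14.8% of all tested genes that fell and 13.9% that rose with let-7c, and 21.1% that fell and 20.7% that rose with miR-294, with a median difference of 0.02 in each comparison. Of the eIF2 kinases and phosphatases, 1 of 6 fell with let-7c and miR-294 was followed by 2 rises and 2 falls (medians -0.02 and -0.04). Ppp1r15b, which directs a phosphatase to eIF2, fell with let-7c (-0.34 ± 0.04, adjusted p = 0.000177) and rose with miR-294 (0.23 ± 0.04, adjusted p = 0.00102). Its stress-induced relative Ppp1r15a rose with miR-294 (0.25 ± 0.07, adjusted p = 0.0154). Eif2ak2, the eIF2 kinase PKR, which senses double-stranded RNA, fell with miR-294 (-0.58 ± 0.07, adjusted p = 6.42e-05) and was not called with let-7c (0.13 ± 0.07, adjusted p = 0.191).

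Of 18 tested regulators around mTORC1 and eIF4E, 6 fell and 1 rose with let-7c, while with miR-294 6 were higher and 4 lower. The list's median was -0.09 with let-7c and 0.08 with miR-294, and its 4 falls with miR-294 are about the share seen in all tested genes. Mknk2, for the kinase Mnk2 that phosphorylates eIF4E, had the largest difference, a fall of -0.94 ± 0.06 with miR-294 (adjusted p = 4.97e-07), and fell with let-7c too (-0.25 ± 0.06, adjusted p = 0.00785). Akt1s1, for the mTORC1 inhibitor PRAS40, rose with miR-294 (0.67 ± 0.06, adjusted p = 1.26e-05), as did Rhebl1 (0.33 ± 0.05, adjusted p = 0.000574). With let-7c, Rps6kb2, a ribosomal S6 kinase gene, fell (-0.37 ± 0.05, adjusted p = 0.000591), and Ddit4, for the mTORC1 inhibitor REDD1, rose (0.37 ± 0.10, adjusted p = 0.015).

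Of 14 tested initiation helpers without an Eif name, 4 fell and 0 rose with let-7c, while with miR-294 5 were higher and 2 lower (medians -0.07 and 0.09). Bzw2, whose protein resembles part of eIF5 and competes with it, fell with let-7c (-0.46 ± 0.05, adjusted p = 5.93e-05) and rose with miR-294 (0.46 ± 0.05, adjusted p = 2.25e-05). Its relative Bzw1 fell with both mimics (-0.16 and -0.18). Abce1, for the ribosome recycling ATPase, fell with let-7c (-0.24), Mcts1 rose with miR-294 (0.34), and the helicase gene Ddx3x fell with miR-294 (-0.43).

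Of 16 tested elongation genes, 3 fell with let-7c (Dph5 by 0.22, Dhps by 0.21 and Gtpbp1 by 0.18) and 0 rose. This is near the share in all tested genes, and the list's median was -0.03. With miR-294 6 of 16 rose and 2 fell, with Eef1e1 (0.64 ± 0.04), Dph3 (0.52 ± 0.06) and Gtpbp2 (-0.41 ± 0.05) as the largest (median 0.04). A place on this list, as for Eef1e1 and Gtpbp2, does not by itself show that a protein acts in elongation. Dhps encodes the first of the enzymes that make hypusine on eIF5A, and Dph3 and Dph5 belong to the diphthamide pathway that modifies elongation factor eEF2. Of 8 genes of termination and rescue, 5 rose and 0 fell with miR-294 (median 0.21), led by Pelo (0.37), Etf1 (0.35) and Hbs1l (0.25). With let-7c the release factor gene Gspt1 fell (-0.23) and Trmt112 rose (0.14), with a median of -0.03. Of the 3 mitochondrial initiation genes, 0 were called with let-7c and 1, Mtif2 (-0.21), fell with miR-294.

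**Figure D4:**
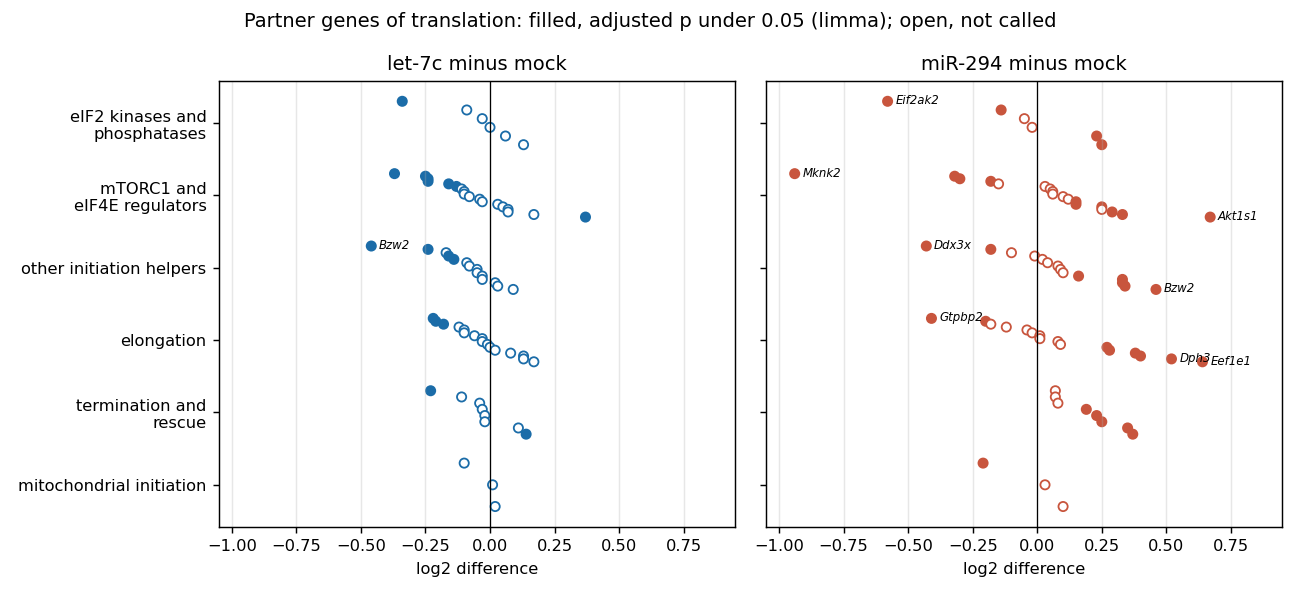
Log2 difference (x axis) of the tested partner genes of translation (points) in 6 lists (rows), for let-7c minus mock and miR-294 minus mock, with filled points for an adjusted p under 0.05 and names where a call was past about 0.4. Mknk2 lies farthest to the left with miR-294 (-0.94) and Akt1s1 farthest to the right (0.67).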

How the data were processed

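RNA of 9 samples was measured on 1-colour arrays. The deposited values, 1 per probe set and array, were made by the authors with GCRMA, per the submitters' processing notes. Neither its version nor its options are stated there. They were taken as log2 intensities from their range, since no header states the scale, and used as deposited. All differences assume it. Precision is limited by having 9 arrays.

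Gene symbols are those of GEO's platform annotation, updated in RefSeq by gene ID. Of 35557 probe sets 21789 had 1 symbol, 1621 several and 12147 none. The probe set of highest mean stood for a gene. R 4.3.3 and limma 3.58.1 (lmFit, eBayes without trend) fitted 13182 genes on all 9 arrays with 3 group means (6 residual degrees of freedom). Tests were two-sided. Called means a p under 0.05 after Benjamini-Hochberg adjustment over all tested genes, and ± gives the standard error. The procedure was run on simulated data with independent noise and changes in few genes of the let-7c group only. That setting differs from these data, so its outcome is not evidence for the calls.

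Members, lists and tests were chosen with earlier results of these data known, so no p is given for a list. Values on each array are given for the 6 called members with the largest difference in each comparison and for Eif4e and Eif5a, with Eif2b4 and Eif3d added after their values were seen; partners are named by up to 3 called genes per list and comparison.

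Replicate numbers come from the labels. Deviations of same-numbered arrays correlated at 0.13 to 0.42 between let-7c and mock and at 0.27 to 0.36 between miR-294 and mock, so a replicate block was taken to pair these; between let-7c and miR-294 the lowest was 0.03. Alternatives were 2 other normalizations, 2 filters (none, and the 60th percentile), 2 treatments of probe sets, an intensity trend with robust prior, only the 2 groups compared, the replicate block, and leaving out each array.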

Additional observations from a re-analysis of the deposited data

How the results depend on the processing

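No called member changed direction under any alternative in any of the 3 comparisons. Over 14 or 15 alternatives each, 12 of 18 calls of let-7c against mock, 16 of 20 of miR-294 against mock and 27 of 33 between the mimics held under all. Leaving out 1 array gave 13 to 17 falls and 0 to 1 rises with let-7c, 17 to 19 rises and 0 falls with miR-294, and 28 to 31 genes lower and 1 higher after let-7c than after miR-294. The 1 rise with let-7c, against 0 as reported, was that of Eif6 and also appeared under quantile normalization, centring on the 75th percentile, the stricter filter, the mean of probe sets, the intensity trend and the replicate block. Under quantile normalization 2 genes, not 1, were higher after let-7c than after miR-294, the second being Eif5. The cause was not tested. With the replicate block 19 genes fell and 1 rose with let-7c, 22 rose with miR-294, and 32 were lower after let-7c than after miR-294; it changed no call other than those of Eif2s3x and Eif6 with let-7c and Eif4g3 and Eif4h with miR-294. With no filter, 45 genes were tested and 14 fell with let-7c and 17 rose with miR-294. Quantile normalization left 14 falls with let-7c, ending those of Eif3b (adjusted p = 0.128), Eif4a3 (0.053), Eif4b (0.0501) and Eif5a (0.0763), and 29 genes lower after let-7c than after miR-294, ending the calls of Eif3c (0.0859), Eif3i (0.153) and Eif4a2 (0.0759). The share of all tested genes called under each alternative is not given beside these counts. Whether a changed count was particular to the members or shared by all genes was not tested. With 3 arrays per group, small differences in dim genes could not be resolved.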
